A study of Mus musculus with 20 samples.

Results

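The genes described here are Myc and a set of ribosome and polyamine production genes that are known or proposed MYC targets. Of the 32 genes named, 29 were measured by a probe set whose array annotation gives that symbol and no other, out of 19505 genes named in this way. Each of the 29 had 1 such probe set. Nop56, Gnl3 and Ebna1bp2 had none and were not analysed here. The genes were described over all 10 groups of the series: Myc itself, 2 enzymes of polyamine synthesis, 9 genes of RNA polymerase I and nucleolar regulation, 3 core proteins of small nucleolar ribonucleoproteins (snoRNPs), 7 genes of small-subunit assembly and 7 genes of large-subunit assembly.

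RNA was measured on 20 mouse Clariom S arrays, 2 per group. Of these, 8 came from cultures of lineage-depleted marrow cells of female wild-type C57BL/6 mice in medium with erythropoietin. They form the groups D1-Control and D2-Control and, with interleukin 6 at 100 ng/mL from the start, D1-IL6 and D2-IL6. The labels do not define the points D1 and D2. The other groups were erythroblasts of C57BL/6 mice aged 1 year, either wild type at both loci (DWT) or lacking both mDia1 and miR-146a (DKO, a double knockout). They were taken as proerythroblasts (stage I), basophilic with polychromatic erythroblasts (stage II+III) or a last stage, orthochromatic erythroblasts (stage IV). The DWT arrays of each stage came from 1 male (replicate 1) and 1 female (replicate 2), and the DKO arrays from females that the labels do not tie across stages. How the stages were isolated, and which cells the knockout alleles affect, are not given in the sources used here. P-values rest on the spread between the 2 arrays of each group, pooled over all groups of an experiment. The DKO-I arrays therefore enter the error of every in vivo comparison. The cultures came from 2 mice in all. The labels do not tie the culture arrays to these mice, so the culture fits treat the arrays as independent and ignore any pairing.

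MYC is a transcription factor that pairs with MAX and binds DNA at the sequence CACGTG, called an E-box. Among its best known targets are the genes that build ribosomes: RNA polymerase I copies the ribosomal DNA, snoRNPs modify and guide the precursor RNA, and separate assembly pathways finish the small and the large subunit. MXD proteins and MXI1 also pair with MAX and oppose MYC. Red cell precursors divide rapidly while they are immature, and as background both Myc and ribosome production are known to decline as they mature.

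The promoter windows of the measured genes are shown because the genes moved largely together across groups. RefSeq promoters on GRCm38.p6, from 250 bases before to 50 bases after a transcription start, were matched for 22 of the 29 genes, with 24 promoters between them. The motif searched was CACGTG, which reads the same on both strands. It occurred in 5 of 24 promoters (20.8%), 1 promoter each of 5 genes, and in 2349 of the 32851 promoters of the same length (7.15%). The 30 bases around each match are given with the motif in capitals.
Nop2: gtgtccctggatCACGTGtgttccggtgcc
Utp20: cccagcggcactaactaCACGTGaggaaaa
Pes1: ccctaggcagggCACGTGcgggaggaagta
Mybbp1a: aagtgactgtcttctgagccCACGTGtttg
Wdr43: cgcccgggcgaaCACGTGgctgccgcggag
The Nop2 window lies at chr6:125131811-125131840 on the plus strand, with the motif starting upstream of the gene, at base -60 from the start. The other windows reach into transcribed sequence. Counted with the first transcribed base as 1, the motif begins at base 38 of Utp20 (chr10:88826765-88826794, minus strand) and at base 3 of Pes1 (chr11:3963965-3963994, plus strand). In Mybbp1a it begins at base 41 (chr11:72441347-72441376, plus strand) and in Wdr43 at base 18 (chr17:71616220-71616249, plus strand). The Wdr43 count is from a start inside the annotated gene, which begins at chr17:71616178. These are matches of letters and not measured binding sites.

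The 150 bases before a transcription start are shown for Nop2, which holds the motif, and for Odc1, whose window holds no match. The pair was chosen after its values were seen: Nop2 fell steeply in culture, and Odc1 followed the others least. Of the 22 genes with a matched promoter, 5 hold the motif in the window searched. Sequence beyond these windows was not searched, so a gene without a match may hold the motif elsewhere. Polr1b also fell steeply and holds no match, while Utp20 and Wdr43 hold it and fell less than Nop2. Any link between the motif and the fall was not tested.
Nop2: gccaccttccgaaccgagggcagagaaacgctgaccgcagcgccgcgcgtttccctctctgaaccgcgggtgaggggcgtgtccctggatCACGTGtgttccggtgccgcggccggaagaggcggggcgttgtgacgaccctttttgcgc
Odc1: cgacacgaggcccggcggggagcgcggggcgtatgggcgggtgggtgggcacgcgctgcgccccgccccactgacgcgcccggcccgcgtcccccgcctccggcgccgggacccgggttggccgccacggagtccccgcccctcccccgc
They span chr6:125131733-125131882 and chr12:17544723-17544872, both on the plus strand. The Odc1 stretch lies before a start inside the annotated gene, which begins at chr12:17544808, so its last bases fall within that gene.

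Levels are log2 signals as deposited, so a difference of 1 is a doubling. The 23 background probe sets of the array type set a floor, their 95th percentile per array (7.25 to 7.74), and lower levels are called near background. All 29 genes were above background in the 4 D1 arrays, 20 to 21 of them in the 4 D2 arrays and 20 to 28 in the in vivo arrays. Arrays of a group correlated across genes at r of 0.97 to 0.994, apart from the DKO-I arrays at 0.903. Of the 20 arrays DKO-I replicate 2 was the least like the rest, with 0.909 as its highest r. The stage I arrays also carried much neutrophil RNA: the 14 neutrophil markers averaged 15.75 or more in DWT-I and 15.19 to 16.65 in DKO-I, and the DKO-II+III arrays were nearly as high at 15.05. They averaged 11.04 to 12.76 in DWT-II+III, 11.58 to 12.08 in DKO-IV and 7.70 to 9.67 in DWT-IV. In whole-sample RNA, fewer cells of a type and less RNA per cell cannot be told apart.

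Over the 10 group means, 26 of the 29 genes had their highest mean in a D1 culture group and 21 their lowest in a D2 group. The correlation of a gene with the mean of the other members across these groups had a median of 0.95, and 21 genes reached 0.9 or more. Those 10 points share donors and cultures and are given as a description. Utp20 lay closest to the common pattern (r = 0.99), while Myc itself (0.63), the small-subunit factor Bysl (0.69) and Odc1 (0.10) lay farthest from it. Over the 6 in vivo group means, Odc1 (-0.34) and Bysl (-0.09) ran against the other members, and the pseudouridine synthase gene Dkc1 had r = 0.32. The distance between the highest and lowest group mean was 1.52 for Rrp9 and 5.70 for Srm and Odc1.

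**Figure D1:**
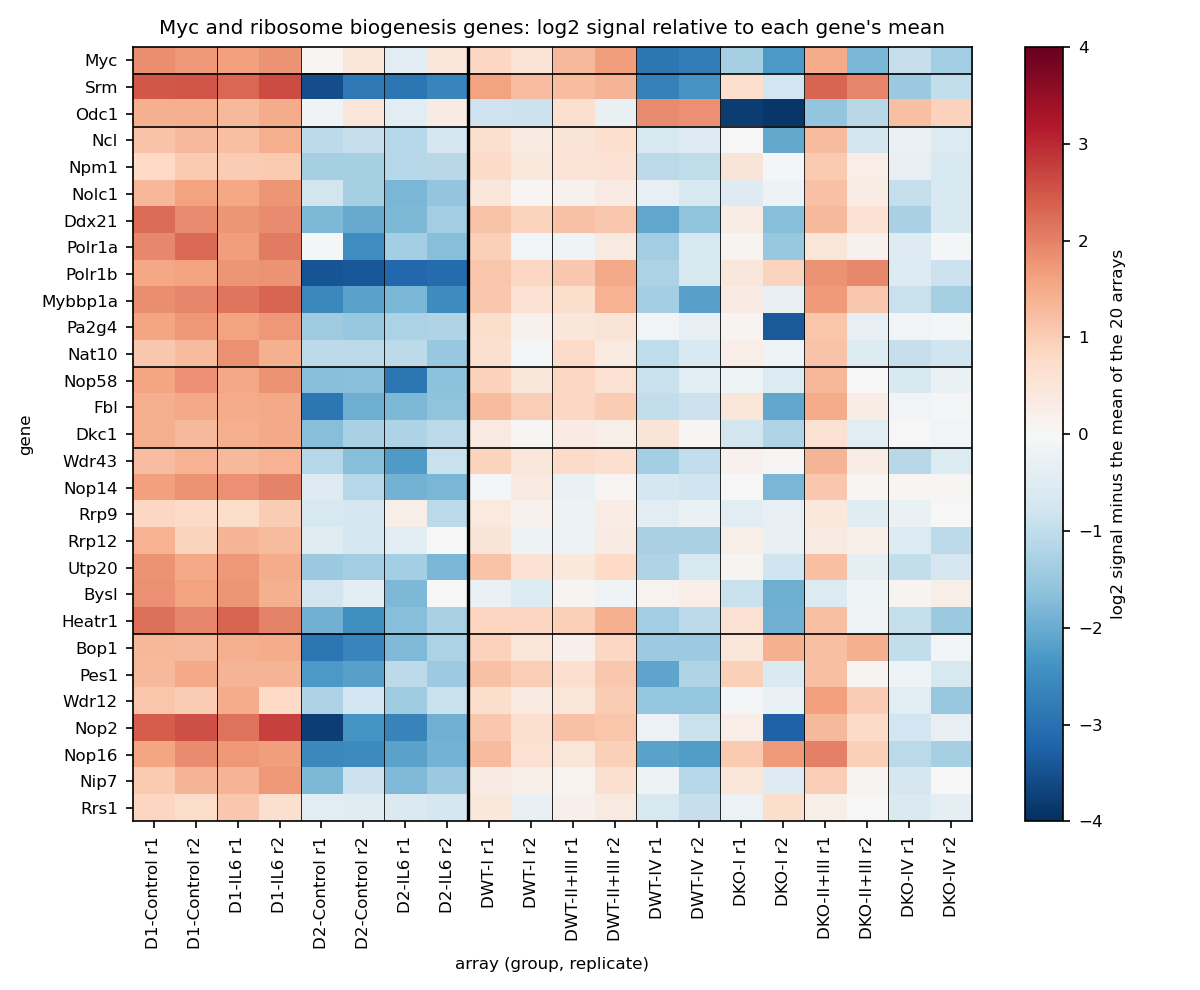
Log2 signal of the 29 measured genes (rows, grouped by role) in each of the 20 arrays (columns), minus that gene's mean over the arrays; the thick vertical line parts cultures from in vivo samples. The 4 D1 arrays are high and the 4 D2 arrays low for nearly every gene, and Odc1 differs from the other rows in vivo.

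Between D1 and D2 in the control cultures, all 29 genes fell. In limma's fit, 23.5% of all probe sets passed as lower at an adjusted p under 0.05, and 50.4% did among the 8510 probe sets left by a filter on dim signal that kept all 29 genes. The members' median log2 fold change was -2.86, against 0.17 over all probe sets. In the IL-6 cultures all 29 also fell, with a median of -2.98 against 0.09. There 20.2% of all probe sets passed as lower, or 45.1% after the filter. In D2-Control 8 genes were near background in both arrays, and their folds are then only bounds. With these genes at their bound the median in the control cultures was -2.56, and with 6 at their bound it was -2.63 with IL-6.

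Myc read 13.51 and 13.37 in D1-Control and 13.28 and 13.45 in D1-IL6. It read 11.71 and 12.13 in D2-Control and 11.18 and 12.13 in D2-IL6. Every D2 array lay below every D1 array, and the control and IL-6 arrays of a time overlapped. The fall was 2.9-fold in control (log2 -1.52 ± 0.28, SE, n = 2 per group, limma adjusted p = 0.0015) and 3.3-fold with IL-6 (-1.71 ± 0.28, adjusted p = 0.00087). With all 20 arrays in 1 fit neither Myc fall passed, and the other 28 genes still did.

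The steepest fall was in Srm, spermidine synthase, which makes spermidine from putrescine. It read 13.61 and 13.63 in D1-Control and 7.57 and 8.28 in D2-Control. That is 52.0-fold lower (log2 -5.70 ± 0.28, adjusted p = 1.6e-07). With IL-6 it went from 13.43 and 13.75 to 8.22 and 8.49, a fall of 37.7-fold. Odc1, ornithine decarboxylase, makes the putrescine that Srm uses and is a textbook MYC target. Its fall was much smaller, from 15.24 and 15.26 to 13.66 and 14.29 in control (-1.28 ± 0.25, adjusted p = 0.0021) and by 1.46 ± 0.25 with IL-6 (adjusted p = 0.0011).

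All 9 genes of RNA polymerase I and the nucleolus fell, with medians of -3.13 in control and -3.36 with IL-6. Polr1b, the second largest subunit of RNA polymerase I, read 12.83 and 12.91 in D1-Control and 7.85 and 7.90 in D2-Control (-4.99 ± 0.22, adjusted p = 8e-08). In the IL-6 cultures it read 13.06 and 13.10 at D1 and 8.16 and 8.21 at D2. Polr1a, the largest subunit, fell by 3.37 ± 0.61, with a wide spread at D2 (7.37 and 4.94). Mybbp1a, a nucleolar protein that binds MYB, fell by 4.25 (bound -4.01) and the nucleolar helicase gene Ddx21 by 3.96. The abundant nucleolar proteins moved less: nucleolin (Ncl) fell by 2.20 and nucleophosmin (Npm1) by 2.26. The growth regulator Pa2g4 fell by 3.13 and the snoRNP chaperone Nolc1 by 2.49. Nat10, which acetylates ribosomal RNA, fell by 2.24 (bound -1.31).

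The 3 snoRNP core genes fell together in both cultures. Fbl, fibrillarin, the methyltransferase of box C/D snoRNPs, read 14.44 and 14.48 in D1-Control and 10.08 and 11.02 in D2-Control (-3.91 ± 0.26, adjusted p = 1.1e-06). Its partner Nop58 read 14.06 and 14.31 and then 10.78 and 10.82 (-3.39 ± 0.33). Dkc1, the pseudouridine synthase of H/ACA snoRNPs, fell by 2.86 (bound -2.59).

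The small-subunit genes spanned a wide range. Heatr1, a scaffold of the early processome, went from 9.62 and 9.36 to 5.48 and 4.96, near background (-4.27 ± 0.31, bound -2.01). Utp20 fell by 3.08 (bound -1.83), Wdr43 by 2.73, Nop14 by 2.56 and Bysl by 2.30. The U3 snoRNP protein gene Rrp9 fell by 1.45 ± 0.39 in control (adjusted p = 0.012) and by 1.28 ± 0.39 with IL-6 (adjusted p = 0.027). Rrp12 fell by 1.74, but only by 0.45 as a bound. Rrp9 did not pass after quantile normalization in either culture.

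Among the large-subunit genes, the PeBoW complex of Pes1, Bop1 and Wdr12 fell in all 3 members in both cultures. Pes1 read 14.54 and 14.76 in D1-Control and 10.94 and 11.06 in D2-Control (-3.65 ± 0.18, adjusted p = 1.7e-07). Bop1 read 11.54 and 11.51 and then 7.31 and 7.55 (-4.10 ± 0.27, bound -4.04). Wdr12 fell by 2.07 ± 0.33. Nop2, the methyltransferase gene with the upstream E-box shown above, fell by 5.57 ± 0.42, from 12.91 and 13.05 to 6.73 and 8.08. Nop16 fell by 4.30, Nip7 by 2.54 (bound -0.64) and Rrs1 by 1.27, which did not pass after quantile normalization. Folds are less certain where 1 array of a group was near background, as for Nop2 and Polr1a in D2-Control and for Wdr43, Rrp9, Dkc1 and Mybbp1a in D2-IL6.

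**Figure D2:**
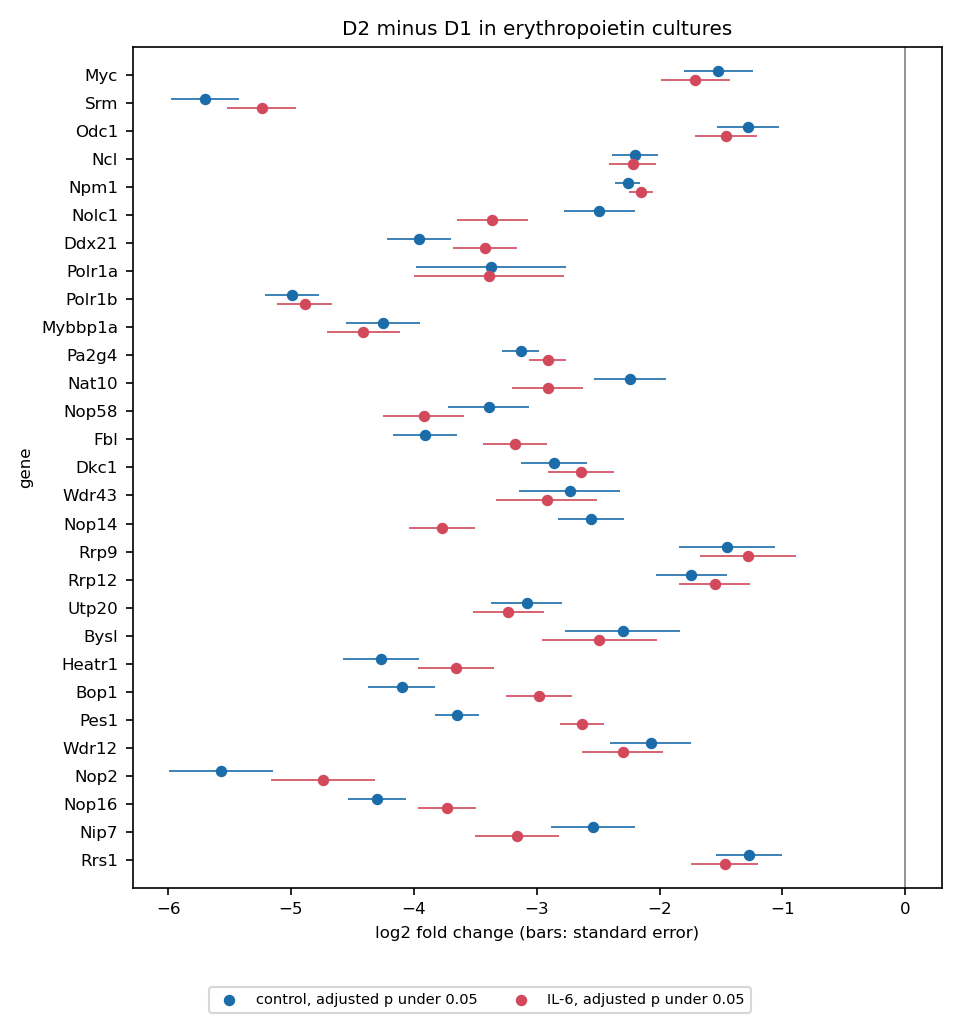
Log2 fold change of each gene from D1 to D2 (points, with bars for the standard error) in control and IL-6 cultures; filled points passed limma at an adjusted p under 0.05. Every point lies below 0 in both cultures, from -5.70 for Srm to -1.27 for Rrs1 in control.

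Of 144 other measured genes of ribosome production, 116 fell and 2 rose between D1 and D2 in control, with a median of -2.03, or -1.61 with 37 genes at their bound. In the IL-6 cultures 115 fell and 1 rose (median -1.89, or -1.65 with 36 bounds). Noc4l (-4.71), Nol6 (-4.12, bound -3.12) and Nmd3 (-4.24, bound -2.63), assembly and export factors, fell most among the processome and large-subunit lists in control. Of 9 further RNA polymerase I genes 5 fell in control and 6 with IL-6, among them the initiation factor gene Rrn3 (-2.59 and -2.91). The RNAs of the cytosolic ribosomal proteins moved far less: 16 of 18 fell in control, with a median of -0.49, and 12 with IL-6, with a median of -0.37.

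Other sets moved between the same arrays. Of 18 cell cycle genes 16 fell in each culture (medians -1.43 and -1.53). The 10 stem and progenitor markers averaged 8.24 to 8.40 in D1-Control and 6.72 to 6.76 in D2-Control, and the receptor gene Kit fell by 7.47 to near background (bound -5.62). The 16 erythroid markers were above background in every culture array and averaged 13.93 at D1 and 14.66 to 14.71 at D2 in control. The list did not move as one: 6 rose and 4 fell in control (median 0.2), and 7 rose and 5 fell with IL-6 (median 0.22). In control Bpgm rose most, by 6.6, while the erythroid factor gene Klf1 fell by 0.81, and by 0.72 with IL-6. The 12 monocyte and macrophage markers averaged 9.22 to 9.55 in D1-Control and 6.92 to 7.12 in D2-Control. With IL-6 they averaged 9.49 to 9.83 at D1 and 9.78 to 10.06 at D2. The 9 granulocyte progenitor markers averaged 9.81 to 10.52 in D1-Control and 7.81 to 7.87 in D2-Control, and 11.01 to 11.25 and then 9.03 to 9.21 with IL-6; 5 of them fell and 1 rose in each culture. The 8 mast cell and basophil markers averaged 8.45 to 8.94 and then 6.15 to 6.49 in control, and 8.14 to 8.88 and then 5.80 to 5.90 with IL-6, and 4 of them fell in each culture. The part of the other lists in the members' fall was not tested.

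Among the MAX partners in the MYC network that oppose MYC, Mxd1 and Mxi1 rose. Values are given for these, Mxd3 and Mnt, which were chosen after their values were seen. Other measured network genes, such as Mxd4 and Mga, are covered only by the counts. Mxd1 read 13.14 and 12.56 in D1-Control and 16.59 and 16.57 in D2-Control, a rise of 3.73 ± 0.17 (limma adjusted p = 9.1e-08), and it rose by 3.75 with IL-6. Mxi1 rose by 3.64 ± 0.21 and 3.81 ± 0.21. The opposing partners Mxd3 (-0.64, adjusted p = 0.12, and -0.81, adjusted p = 0.07) and Mnt (-0.50 and -0.16) did not pass in control or with IL-6. Max, the shared partner, read 13.61 and 13.32 and then 13.12 and 13.28 in control (-0.26, adjusted p = 0.24), and it fell by 0.73 with IL-6 (adjusted p = 0.0079). Of the 15 network genes measured, 2 rose and 5 fell in control, and 3 rose and 5 fell with IL-6.

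**Figure D3:**
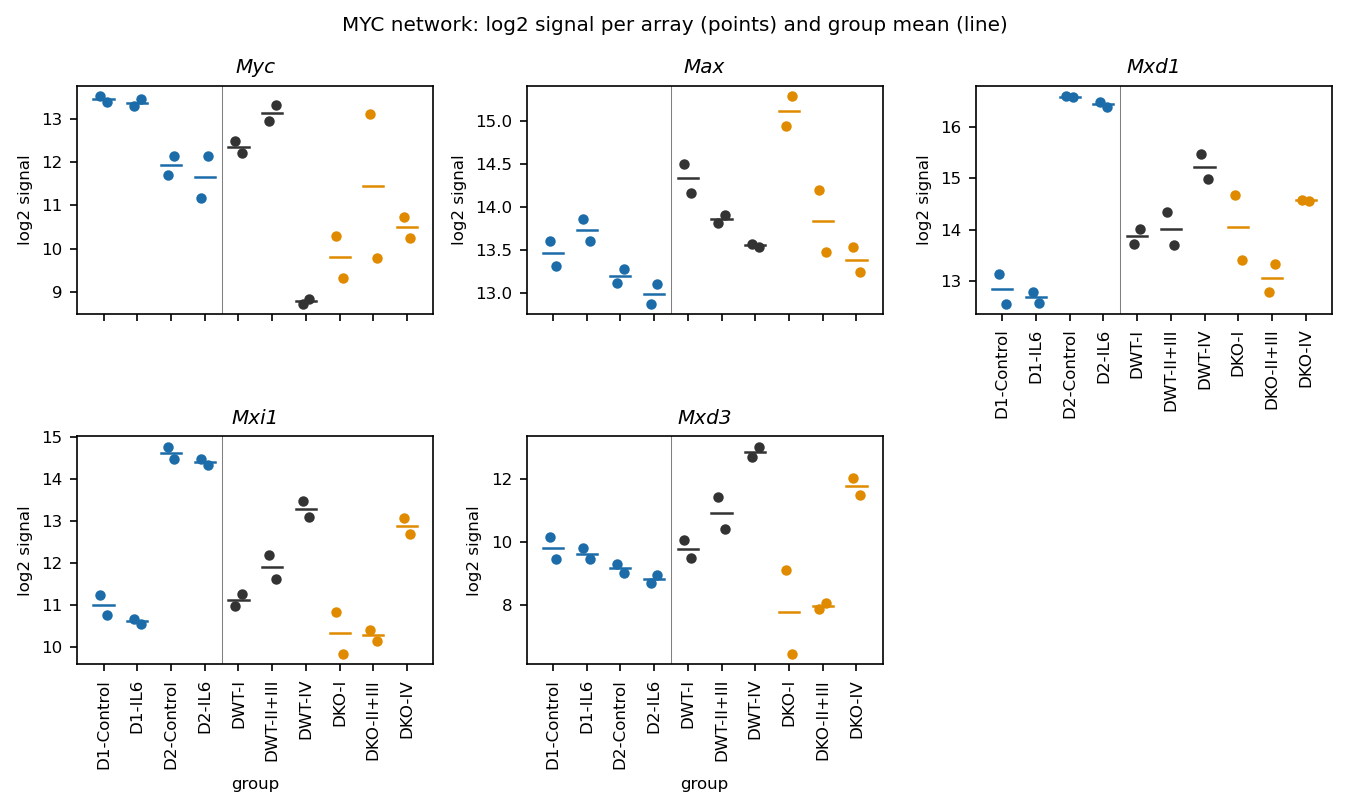
Log2 signal of Myc, its partner Max and the opposing factors Mxd1, Mxi1 and Mxd3 in each array (points) and group mean (lines), for cultures (blue), DWT (black) and DKO (orange). Mxd1 and Mxi1 are higher in every D2 array than in every D1 array, where Myc is lower.

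IL-6 was compared with control at each time. At D1 none of the 29 genes passed, and none had an unadjusted limma p under 0.05. Only 10 probe sets in all (0.0511%) passed there, with 554 at an unadjusted p under 0.05 (limma). The D1 folds ran from -0.23 for Polr1a to 0.45 for Nat10, and Myc had -0.08 ± 0.28. At D2, 2 genes (6.9%) rose, both of the PeBoW complex. Of all probe sets 2.92% passed as higher. After the filter on dim signal 7.3% did, close to the share of the members. Pes1 read 12.18 and 11.78 in D2-IL6 and 10.94 and 11.06 in D2-Control (0.98 ± 0.18, 2.0-fold, adjusted p = 0.013). Bop1 read 8.45 and 8.93, against 7.31 and 7.55 near background (1.26 ± 0.27, bound 1.21, adjusted p = 0.027).

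Their partner Wdr12 did not pass (-0.14 ± 0.33). Nop14 read 8.31 and 8.38 with IL-6 and 9.67 and 9.05 without (-1.01 ± 0.27, adjusted p = 0.081). Myc had -0.27 ± 0.28 (adjusted p = 0.73). For none of the 29 did the IL-6 effect at D2 differ from that at D1 by the interaction test (1.19% of all probe sets passed), Pes1 coming closest (1.02 ± 0.26, adjusted p = 0.14). The differences ran from -1.21 for Nop14 (adjusted p = 0.30) to 1.12 for Bop1 (adjusted p = 0.37), and 3 members had an unadjusted limma p under 0.05. Leaving out D2-Control replicate 1 ended both calls, and so did fitting the 4 arrays alone or all 20 arrays together. Bop1 also failed without D2-Control replicate 2 or D2-IL6 replicate 2, and Pes1 without D2-IL6 replicate 1. In the same comparison 8 of 12 monocyte markers and 6 of 14 neutrophil markers rose, and their part in the Pes1 and Bop1 values was not tested.

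In vivo, stage II+III was first compared with stage I in DWT mice. No member passed there (0.245% of probe sets did in either direction), and 1 had an unadjusted limma p under 0.05. The median was 0.05, from -0.31 for Polr1a to 1.01 ± 0.39 for Odc1 (adjusted p = 0.54), and Myc had 0.78 ± 0.84. With the DWT mouse as a replicate block no member passed either. Over the same step the neutrophil markers averaged 15.75 or more at stage I and 11.04 to 12.76 at stage II+III, and 4 of the 14 fell.

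From stage II+III to stage IV in DWT, 12 of the 29 genes fell and Odc1 rose. Of all probe sets, 3.57% passed as lower and 1.59% as higher. After the filter on dim signal, 10.3% passed as lower and 4.58% as higher. The members' median was -1.54 (-1.38 with 5 genes at their bound), against 0.12 over all probe sets. Myc fell most. It read 12.94 and 13.31 at stage II+III and 8.74 and 8.85 at stage IV, 20.1-fold lower (-4.33 ± 0.84, adjusted p = 0.021).

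Srm read 12.35 and 12.48 and then 8.43 and 8.78, 14.0-fold lower (-3.81 ± 0.50, adjusted p = 0.011). Ddx21 went from 11.26 and 11.17 to 8.02 and 8.47 (-2.97 ± 0.61), Nop16 from 11.11 and 11.58 to 8.48 and 8.39 (-2.91 ± 0.48) and Mybbp1a from 10.32 and 10.98 to 8.23 and 7.43 (-2.83 ± 0.47). None of these stage IV arrays overlapped with the stage II+III arrays. The PeBoW genes all fell: Pes1 by 2.52, Wdr12 by 2.29 and Bop1 by 1.97. Polr1b fell by 2.25, Wdr43 by 1.89 and Npm1 by 1.61. Rrp12 passed too, but it was near background in both groups and no fold is given.

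The 16 genes that did not pass included all 3 snoRNP genes, of which Fbl had -1.84 ± 0.70 and Dkc1 -0.02 ± 0.42. Heatr1 had -2.42 ± 0.70 (bound -1.29, adjusted p = 0.074) and Bysl 0.23 ± 0.42. In 26 of the 29 genes both stage IV arrays lay below both stage II+III arrays, as in 26.0% of all probe sets. The calls depended on single arrays: 0 of 29 passed without DWT-IV replicate 1 or without DWT-II+III replicate 2, 2 without DWT-IV replicate 2 and 5 without DWT-II+III replicate 1. With the DWT mouse as a replicate block 8 fell and none rose. Odc1 (adjusted p = 0.054), Pes1 (0.051), Bop1, Wdr43 and Rrp12 no longer passed.

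In the fit of the 12 in vivo arrays, Odc1 was the only member that passed as higher. In DWT it read 12.97 and 12.96 at stage I, 14.45 and 13.50 at stage II+III and 15.69 and 15.64 at stage IV. The last step was a rise of 1.69 ± 0.39 (3.2-fold, adjusted p = 0.038), opposite to Srm, the next enzyme of the same pathway. The rise did not pass after quantile normalization (1.53, adjusted p = 0.053), where Bop1 and Wdr43 did not pass either. Without DWT-II+III replicate 2 the Odc1 difference was 1.21.

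**Figure D4:**
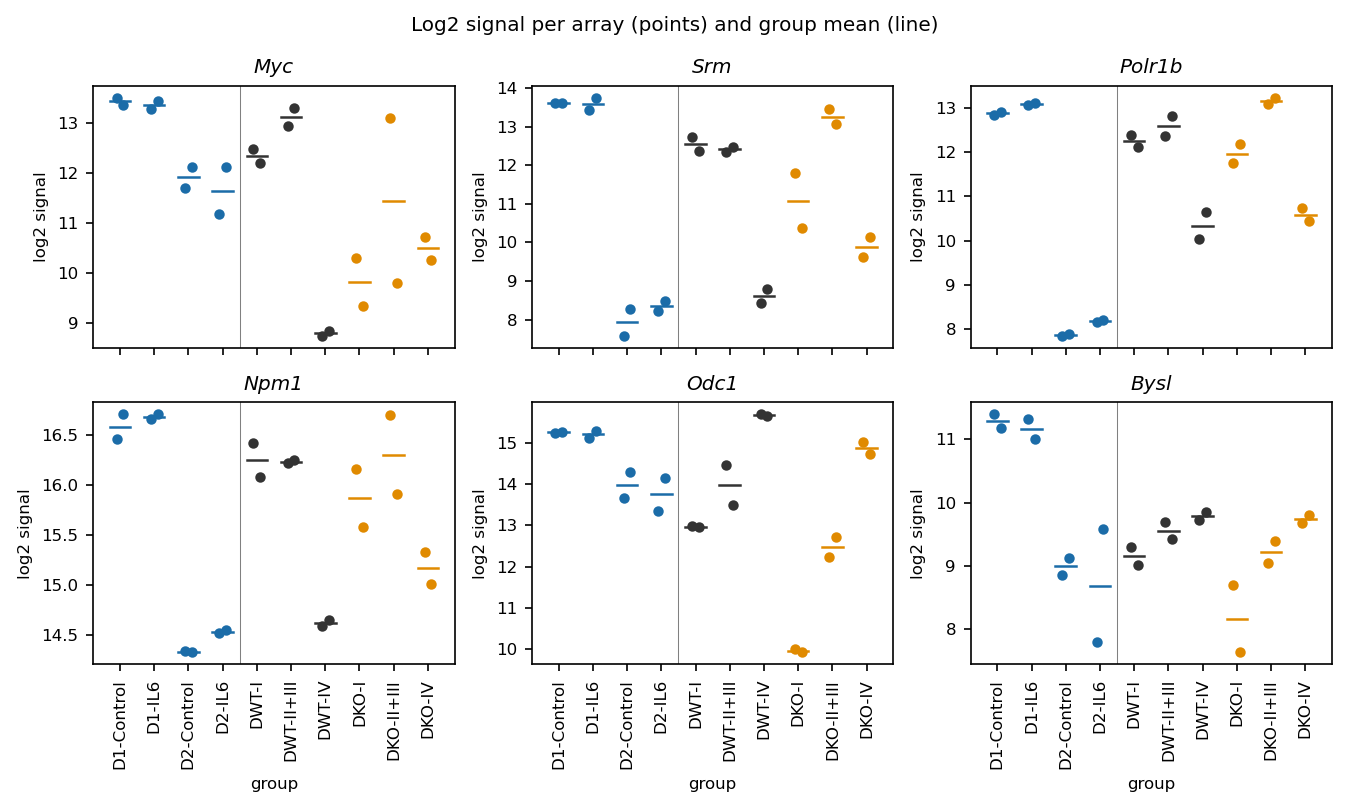
Log2 signal of 6 genes in each array (points) with the group mean (lines), for cultures (blue), DWT (black) and DKO (orange). Myc, Srm, Polr1b and Npm1 are low in DWT-IV, where Odc1 is at its highest and Bysl lies slightly above the earlier DWT stages.

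In DKO mice, the step from stage I to II+III gave 1 call, a rise of Odc1 from 10.00 and 9.92 to 12.22 and 12.71 (2.50 ± 0.39, limma adjusted p = 0.03; 0.24% of probe sets passed as higher). Of the 29 genes 28 had a positive difference, with a median of 1.06 against -0.11 over all probe sets. The 16 erythroid markers averaged 8.98 to 9.52 in DKO-I and 11.60 to 12.53 in DKO-II+III, and 9 of them rose, among them the erythroid factor gene Klf1 (3.98 ± 0.53, adjusted p = 0.014). Their part in the members' differences was not tested. Srm had 2.18 ± 0.50 (adjusted p = 0.15) and Nop2, the largest, 2.52 ± 0.87 (adjusted p = 0.41). Without DKO-I replicate 1 the count was 12, and it then rested on the array that stands apart. Without either DKO-II+III array no member passed.

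From stage II+III to IV in DKO, 7 genes fell and Odc1 rose (3.66% of probe sets passed as lower, 4.11% as higher). After the filter on dim signal, 10.8% passed as lower and 10.5% as higher. The 7 were Srm, Polr1b, Nop16, Mybbp1a, Wdr12, Bop1 and Wdr43, and all 7 were among the 12 that fell in DWT. Srm read 13.46 and 13.07 and then 9.63 and 10.13 (-3.39 ± 0.50, adjusted p = 0.0057). Polr1b went from 13.09 and 13.22 to 10.74 and 10.44 (-2.57 ± 0.40, adjusted p = 0.0063). Nop16 fell by 2.70, Mybbp1a by 2.52, Wdr12 by 2.29, Bop1 by 1.87 and Wdr43 by 1.65, its adjusted p rounding to 0.05. Odc1 rose from 12.22 and 12.71 to 15.01 and 14.73 (2.40 ± 0.39, adjusted p = 0.0073).

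Myc was not among them. Its DKO-II+III arrays read 13.11 and 9.80 and its DKO-IV arrays 10.73 and 10.26, so the stages overlapped (-0.96 ± 0.84, adjusted p = 0.57). Without DKO-II+III replicate 1 the sign turned (0.70), and without replicate 2 Myc passed as lower (-2.62, adjusted p = 0.039). Kit, a progenitor gene, was also far apart in these DKO-II+III arrays (14.46 and 10.37). The same held in DKO-I (12.26 and 5.76) and DKO-IV (12.29 and 6.00). Replicate 2 was the lower array at every stage, and it was near background in DKO-I and DKO-IV only. The count of members that passed was 3 without DKO-II+III replicate 1 or DKO-IV replicate 1 and 1 without DKO-IV replicate 2. It was 14 when the array that stands apart was left out of the shared spread, an alternative chosen after seeing the data.

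The changes from stage II+III to IV were not shown to differ between genotypes. No member passed the interaction test, in which no probe set at all passed (0.0%) and 1 member had an unadjusted limma p under 0.05. Myc had the largest difference (3.37 ± 1.19, adjusted p = 1.0) and Nolc1 the lowest (-0.78). Of the 144 other ribosome production genes, 12 fell from stage II+III to IV in DWT (median -0.81) and 8 in DKO (median -0.54), and none rose. Mxi1 rose in DKO by 2.61 ± 0.45 (adjusted p = 0.0085) and Mxd3 by 3.79 ± 0.73 (adjusted p = 0.013). In DWT they had 1.39 ± 0.45 (adjusted p = 0.10) and 1.94 ± 0.73 (adjusted p = 0.16). Marker lists moved over this step: 8 of 14 neutrophil markers fell in DWT and 10 in DKO. Of 16 erythroid markers, 14 rose in DKO and 1 in DWT. Granulocyte progenitor markers averaged 12.23 to 12.66 and then 9.21 to 9.62 in DWT. In DKO they averaged 13.23 to 13.88 and then 8.44 to 10.50. Stem and progenitor markers averaged 9.56 to 9.69 and then 7.30 to 7.79 in DWT. Mast cell and basophil markers averaged 10.96 to 11.56 and then 9.33 to 9.47 there. In DKO the stages overlapped for both of these lists. Monocyte and macrophage markers averaged lower at stage IV in both genotypes. The part of all these lists in the members' fall was not tested.

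**Figure D5:**
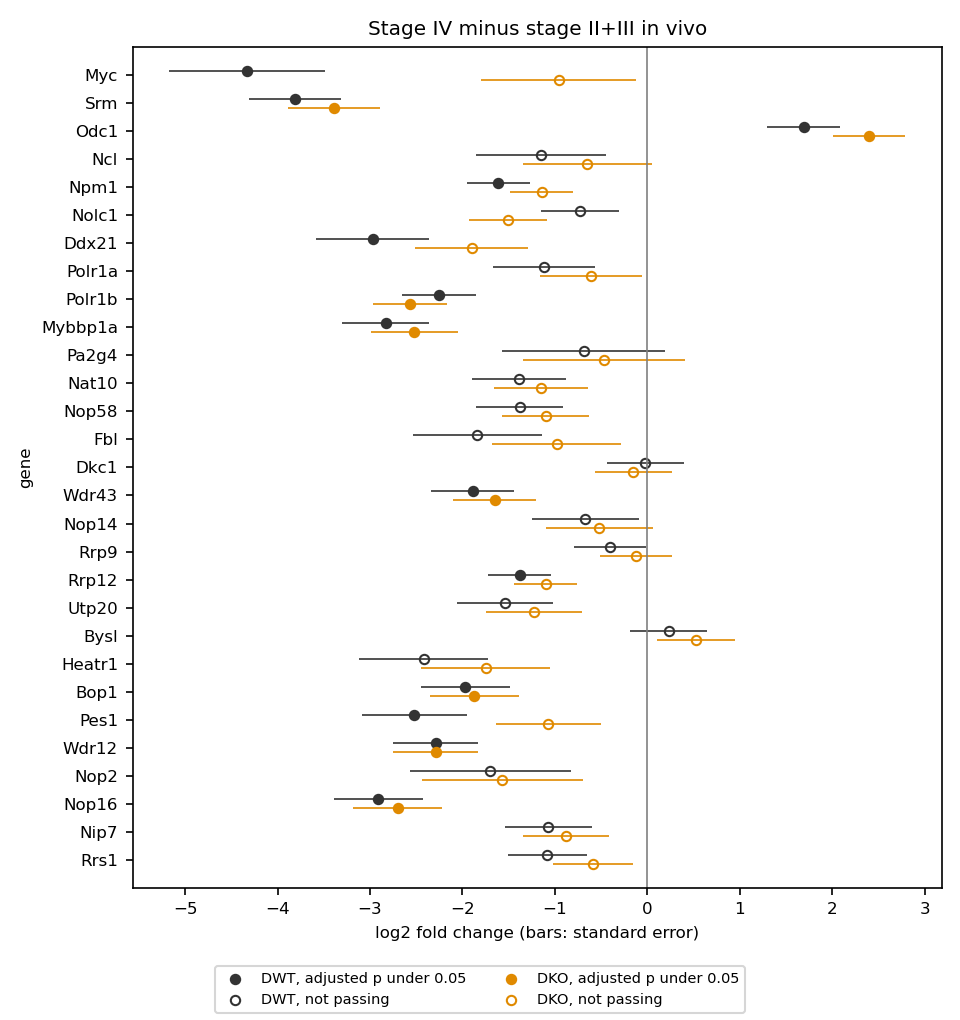
Log2 fold change of each gene from stage II+III to stage IV (points, with bars for the standard error) in DWT and DKO; filled points passed limma at an adjusted p under 0.05. Odc1 lies above 0 and most others below 0 in both genotypes, and the Myc points are the farthest apart (-4.33 in DWT, -0.96 in DKO).

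DKO was then compared with DWT at each stage. At stage I, 26 of 29 genes had lower means in DKO. The members' median was -1.0 (-0.90 with 1 gene at its bound) against 0.15 over all probe sets. The 18 cell cycle genes had a median of -2.08 there. They averaged 10.03 and 12.60 in DKO-I and 13.24 to 13.61 in DWT-I, and their part in the members' differences was not tested. Of the members only Odc1 passed (0.388% of probe sets passed as lower). Odc1 read 10.00 and 9.92 in DKO-I and 12.97 and 12.96 in DWT-I, 8.0-fold lower with no overlap (-3.00 ± 0.39, adjusted p = 0.0098). Myc read 10.30 and 9.34 against 12.48 and 12.20 (-2.52 ± 0.84, adjusted p = 0.26), and Nop2 10.74 and 7.24 against 11.55 and 11.12 (-2.34 ± 0.87, adjusted p = 0.29). In 19 genes both DKO arrays lay below both DWT arrays, as in 17.4% of all probe sets.

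Single arrays decided this count. Without DKO-I replicate 1, which leaves the array that stands apart as the sole DKO-I array, 14 members passed, Myc among them (-3.0, adjusted p = 0.043), and without DWT-I replicate 1 or DWT-I replicate 2 none did. With sex as a covariate, or with the 4 arrays alone, Odc1 did not pass. The libraries labelled DKO-I also carried little erythroid signal. The 16 erythroid markers averaged 8.98 and 9.52 there, with 4 to 6 near background, and 12.42 to 12.48 in DWT-I. Of the 16 markers 11 fell, among them Klf1 (-3.33 ± 0.53, limma adjusted p = 0.025). The erythroid factor gene Gata1 did not pass (-0.76 ± 0.46, adjusted p = 0.41). It read 7.16 in DKO-I replicate 1, near background, but was above background in DKO-I replicate 2 and in DWT-I (8.43 and 8.24). The part of cell makeup in the Odc1 difference was not tested.

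At stage II+III no member passed (0.618% of probe sets did), and 1 had an unadjusted limma p under 0.05. Odc1 was again lower in both DKO arrays (-1.51 ± 0.39, adjusted p = 0.16), and Srm was higher in both (0.85 ± 0.50, adjusted p = 0.69). Myc had -1.67 ± 0.84 (adjusted p = 0.60), and it passed without DKO-II+III replicate 1 (-3.33, adjusted p = 0.04). At this stage the neutrophil markers averaged 15.05 in both DKO arrays and 11.04 to 12.76 in DWT, and the erythroid markers 11.60 to 12.53 and 13.65 to 14.29. At stage IV no member passed either (0.046% of probe sets did), again with 1 at an unadjusted limma p under 0.05. There 24 of 29 genes had higher means in DKO, with a median of 0.33 against -0.02 over all probe sets. Myc read 10.73 and 10.26 in DKO-IV and 8.74 and 8.85 in DWT-IV (1.70 ± 0.84, adjusted p = 0.66). Srm had 1.27 ± 0.50 (adjusted p = 0.55) and Odc1 -0.79 ± 0.39 (adjusted p = 0.66). The neutrophil markers averaged 11.58 to 12.08 in DKO-IV and 7.70 to 9.67 in DWT-IV, and the erythroid markers 14.80 to 14.94 and 14.95 to 15.16. The part of these lists in the differences between genotypes at both stages was not tested. Differences of the DKO effect between stages I and II+III passed for no member or other probe set, and 2 members, Srm (2.32 ± 0.71, adjusted p = 0.80) and Odc1 (1.49 ± 0.56, adjusted p = 0.80), had an unadjusted limma p under 0.05.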

How the data were processed

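Each deposited value is a log2 signal, for which the submitters' processing notes name RMA (robust multi-array averaging) and the Affymetrix program Expression Console, versions not given. Whether all 20 arrays were normalized together is not given in the sources used here. Of 28846 probe sets, 19572 carried 1 gene symbol and were tested with limma 3.58.1 under R 4.3.3, using lmFit and an eBayes step that allows an intensity trend. Cultures (8 arrays; 4 residual, 6.41 prior degrees of freedom) and in vivo samples (12 arrays; 6 and 4.52) were fitted separately. In each of 11 group comparisons and 3 interaction contrasts, 2-sided p-values were adjusted by Benjamini-Hochberg over all 19572 probe sets, with a threshold of 0.05. Errors are standard errors with n = 2 per group. The number of arrays limits the precision.

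The filter on dim signal kept probe sets above background in at least 2 arrays of a fit. It kept 29 of the 29 genes in culture and 28 in vivo, where Rrp12 was dropped. For a gene near background in all arrays of only 1 of the groups compared, a bound on the fold, taken against that level, stands beside it. When 1 array is left out, its lone partner is taken to vary as the remaining groups do. Sex labels tie the DWT arrays of different stages to the same 2 mice. The correlations of their deviations from the group means were 0.10, 0.02 and 0.12. The limma step was tested on simulated data.

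The members and all gene lists were chosen with earlier results of these data known. The rule for naming gave every member a value, in full where it passed or, where none did, for Myc and the extremes; members named without passing (such as Fbl, Dkc1, Heatr1, Bysl, Wdr12, Nop14 and Srm) were chosen after their values were seen. Of other lists at most the 3 largest passing changes are named, except that Max, Mxd1, Mxi1, Mxd3, Mnt, Kit, Gata1, Klf1, Azin1, Sms and Sat1 were chosen after their values were seen. Replicate numbers follow the order of the records, apart from the DWT mice.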

Additional observations from a re-analysis of the deposited data

How the results depend on the processing

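The alternatives were a filter on dim probe sets, median centring, quantile normalization, no intensity trend, other sets of arrays in the fit, a sex covariate, a replicate block for the DWT mouse and leaving out each array; using every probe set gave the same values, since each member has 1. Quantile normalization left 27 and 28 of the 29 falls between D1 and D2, and both scalings moved the median of all genes there in control from 0.17 to 0.03 or 0.04. For DWT stage IV against II+III it turned the 311 higher and 699 lower probe sets into 446 and 570. Quantile normalization left 10 falls and no rise of members there, where 12 fell and 1 rose, and median centring 11 and 1. In DKO both scalings left 6 falls and 1 rise, where 7 fell and 1 rose. For IL-6 at D2 quantile normalization gave 2 rises and 1 fall. Counts of members that passed moved by over 1.5 times as follows. IL-6 at D2 (2) gave 1 without the trend and 0 with all 20 or only 4 arrays. DKO against DWT at stage I (1) gave 0 with 4 arrays or the sex covariate, and stage II+III (0) gave 1 with all 20 arrays or with DKO-I replicate 2 left out of the spread. DWT stage IV against II+III (13) gave 20 with only 4 arrays and 8 with the replicate block, which changed no other call of the DWT steps than those named above. DKO stage II+III against I (1) gave 2 and 0 with all 20 and only 4 arrays, and DKO stage IV against II+III (8) gave 14 with DKO-I replicate 2 left out of the spread. Leaving out 1 array gave 28 to 29 for D2 against D1 in each culture, 0 to 3 for IL-6 at D2, 0 to 14, 0 to 1 and 0 for DKO against DWT at stages I, II+III and IV, 0 to 5 for DWT stage IV against II+III, 0 to 12 and 1 to 9 for the DKO steps, and 0 to 1, 0 to 6 and 0 for the interactions of IL-6, of stages I and II+III and of stages II+III and IV. IL-6 at D1 and the first DWT step stayed at 0. The sign of Myc turned in 7 of these, none of which passed. Its value ran from -0.16 to 0.01 for IL-6 at D1 (turned without D1-IL6 replicate 1), from -0.74 to 0.21 for IL-6 at D2 and from -0.67 to 0.28 for its interaction (turned without D2-IL6 replicate 1, the interaction also without D2-Control replicate 2, 0.02). Without DKO-II+III replicate 1 it turned for DKO II+III against I (-0.02 to 3.3), for IV against II+III (-2.62 to 0.70) and for the DKO effect at II+III minus I (-0.81 to 2.51). The cause was not tested. With 2 arrays per group, differences near the standard errors given were not detectable.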

Other observations

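Cell cycle genes fell beside the ribosome production genes in culture, while at the last step in vivo their differences had the opposite sign, mostly without passing the test. From D1 to D2, 16 of 18 cell cycle genes fell in each culture, led by the replication helicase subunits Mcm3 (-3.03) and Mcm4 (-2.91 in control, -3.10 with IL-6). From stage II+III to IV all 18 had positive differences in both genotypes, with medians of 1.14 in DWT, where 1 passed, and 1.82 in DKO, where 5 passed. The 18 ribosomal protein genes had no calls at that step, with medians of -0.60 in DWT and -0.20 in DKO.

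Polyamine genes outside the members were also split. Between D1 and D2 in control, spermine synthase (Sms) fell by 2.74 to near background (bound -1.28), and with IL-6 its value was -2.75 (bound -1.43), beside Srm, while the antizyme inhibitor gene Azin1, whose product shields ornithine decarboxylase, rose by 2.74 and 2.36, unlike Odc1. In vivo Azin1 rose from stage II+III to IV in DKO by 2.53 (adjusted p = 0.025), as Odc1 did, and Sms in DWT fell by 2.22 to near background (bound -1.47). Sat1, which acetylates polyamines for export, was higher with IL-6 at D2 by 2.09 (limma adjusted p = 0.0017). It read 12.83 and 12.74 there and 10.35 and 11.04 in D2-Control. From stage II+III to IV it fell by 2.67 in DWT and fell by 2.12 in DKO.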
